A study of Mus musculus with 2 samples.

Results

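The ATF4 amino acid and stress response was described through 10 genes. Members were named by symbol as Atf4, Atf3, Ddit3, Trib3, Chac1, Ddit4, Sesn2, Asns, Psat1 and Phgdh. These members and the gene lists below were chosen with earlier results of these data known. Their counts and medians beside those of all genes are thus a description, not an independent comparison. All 10 were found among the 20211 gene symbols measured, each on a single row. A filter of a mean RPKM of at least 1 kept 9 of them, all but Atf3, and 10068 genes in all. RPKM is the number of reads divided by transcript length and by the depth of the library, so levels of different genes can be set side by side.

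RNA came from primary perivascular cells (PVCs) of the mouse aorta on the C57BL/6 background, grown in DMEM with 10% FBS per the labels, while the study's culture methods give a higher share of FBS for primary PVCs. There was 1 library from wild type (WT) cells and 1 from Kai1 KO cells, which come from Kai1 knockout mice. KAI1 is a membrane protein of the tetraspanin family encoded by Cd82. The study's methods describe its C57BL/6 mice as adults of either sex. The age, sex and number of the animals behind each library and the allele are not given in the sources used here. With 1 library per genotype no test was possible, and no difference given here has a replicate check. The intervals are 95% exact intervals from approximate read numbers and cover counting error only.

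ATF4 is a basic leucine zipper transcription factor at the end of the integrated stress response. Amino acid shortage, misfolded protein in the endoplasmic reticulum, haem shortage and viral RNA each act on a kinase that phosphorylates the initiation factor eIF2. General translation then slows while the Atf4 mRNA is translated more, so that the level of the Atf4 mRNA and that of the protein need not move together. ATF4 pairs with C/EBP proteins, induces enzymes, transporters and tRNA synthetases that restore amino acids, and induces CHOP (the product of Ddit3), TRIB3 and CHAC1 when stress persists. In vessel wall cells, serine and glycine made through PHGDH and PSAT1 also feed nucleotide and collagen production.

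Of the 9 members kept, 3 were more than 2-fold lower in the Kai1 KO library, Chac1, Trib3 and Ddit3, where 7.81% of all genes kept were. Ddit4 was the 1 member more than 2-fold higher, where 7.98% of genes were. The ratios of 7 members lay below 0 on the log2 scale, against 44.9% of all genes kept. The median log2 ratio of Kai1 KO to WT was -0.89 over the 9 members kept and -0.84 over all 10. Over all genes kept it was 0.08, with quartiles of -0.35 and 0.50. The members thus did not share 1 size or direction of difference, and their ratios spanned 3.21 log2 units. Ratios were computed as log2((RPKM + 0.1)/(RPKM + 0.1)), a scale on which the difference of a gene with a low RPKM comes out smaller than it was.

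**Figure D1:**
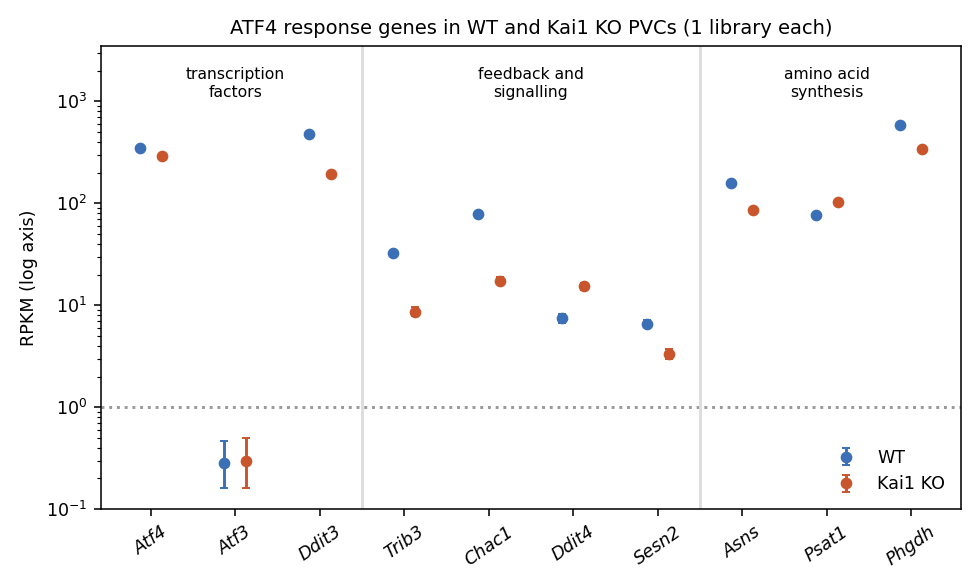
RPKM of the 10 members in the WT and Kai1 KO libraries on a log axis, 1 point per library, with 95% intervals for counting error and a dotted line at 1 RPKM. Phgdh, Ddit3 and Atf4 stood highest in both libraries, Chac1 and Trib3 were separated most, and the intervals of Atf3 overlapped.

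Among the transcription factors, Atf4 itself was abundant. It lies on chr15:80085614-80087970 (mm9, plus strand, 3 exons). Its level was 352.5 RPKM in WT and 289.1 RPKM in Kai1 KO cells, rank 324 and rank 406 of the 20211 symbols. The Kai1 KO level was 82.0% of the WT level, a log2 ratio of -0.29 (-0.32 to -0.25). A lower ratio was seen in 27.9% of all genes kept, so the Atf4 mRNA stood well inside the spread of genes. RPKM values say nothing of how much of this mRNA was translated.

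Ddit3 encodes CHOP, a factor that ATF4 induces and that promotes cell death under lasting stress. The gene lies on chr10:126727830-126733344 (plus strand, 2 exons). Its RPKM was 478.6 in WT cells, above that of Atf4, and 193.5 in Kai1 KO cells, below it. The Kai1 KO level was 40.4% of WT, a log2 ratio of -1.31 (-1.36 to -1.25), and 4.93% of genes kept had a lower ratio. Within each library, the level of Ddit3 was 1.36 times that of Atf4 in WT cells and 0.669 times in Kai1 KO cells. Exons of Ddit3 and of Mars, which encodes methionyl tRNA synthetase on the opposite strand, share 68 bases, and a processed transcript on that strand shares 13. Whether the library kept strand is not given, so reads in those bases cannot be assigned. Mars had a far lower RPKM, 29.6 in WT and 41.3 in Kai1 KO cells, and a log2 ratio of 0.48.

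Atf3, a stress-induced repressor that ATF4 and other factors switch on, was close to the limit of detection. The gene lies on chr1:192994175-193007219 (minus strand, 4 exons). It had an RPKM of 0.285 in WT cells, from about 15 reads, and 0.295 in Kai1 KO cells, from about 14 reads. The intervals of these levels were 0.160 to 0.470 and 0.161 to 0.494, and the log2 ratio of 0.04 had an interval of -1.11 to 1.20. A difference of up to 2-fold either way was not detectable at this depth. The rank of Atf3 was 11759 in WT and 11310 in Kai1 KO cells, so of the 3 factors it alone was nearly silent while Atf4 and Ddit3 were abundant.

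Among the feedback and signalling members, Chac1 and Trib3 had the lowest ratios of the whole set. Chac1 encodes an enzyme that breaks down glutathione and is a target of ATF4 and CHOP. It lies on chr2:119176965-119180117 (plus strand, 3 exons). Its RPKM was 78.9 in WT cells and 17.4 in Kai1 KO cells, from about 3347 and 666 reads. The Kai1 KO level was 22.0% of WT, a log2 ratio of -2.18 (-2.30 to -2.06), and 1.80% of genes kept had a lower ratio.

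Trib3 encodes a pseudokinase that binds ATF4 and CHOP and holds back AKT, and so acts as a brake on the response that induces it. The gene lies on chr2:152163158-152169768 (minus strand, 4 exons). Its RPKM was 32.5 in WT and 8.68 in Kai1 KO cells, from about 1749 and 422 reads. The Kai1 KO level was 26.7% of WT, a log2 ratio of -1.89 (-2.06 to -1.75), with 2.57% of genes lower. Both genes stood lower in the Kai1 KO library also in relation to Ddit3. The quotient of Chac1 over Ddit3 was 0.165 in WT and 0.0898 in Kai1 KO cells, and that of Trib3 over Ddit3 was 0.0678 and 0.0449.

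The remaining pair of signalling members, both of which restrain the growth kinase complex mTORC1, had ratios of opposite sign. Sesn2, a leucine sensor that acts through the GATOR complexes, lies on chr4:132047947-132066416 (minus strand, 10 exons). It had an RPKM of 6.59 in WT and 3.35 in Kai1 KO cells, from about 637 and 293 reads. This was 50.9% of WT, a log2 ratio of -0.95 (-1.18 to -0.77), just inside the 2-fold limit. Ddit4 encodes REDD1, which acts on mTORC1 through the TSC complex and which hypoxia and glucocorticoids also induce. It lies on chr10:59412423-59414518 (minus strand, 3 exons). Its RPKM was 7.44 in WT and 15.3 in Kai1 KO cells, from about 326 and 606 reads, a log2 ratio of 1.03 (0.84 to 1.24). Ddit4 was thus 2.06-fold higher, just past the limit, and its counting interval included smaller differences than 2-fold. In WT cells the levels of Ddit4 and Sesn2 were alike, with a quotient of 1.13, and in Kai1 KO cells the quotient was 4.57.

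Of the amino acid synthesis enzymes, Asns and Phgdh stood lower and Psat1 higher in the Kai1 KO library. Asns, which makes asparagine from aspartate and glutamine, lies on chr6:7625169-7643254 (minus strand, 12 exons). Its RPKM was 159.7 in WT and 86.0 in Kai1 KO cells, from about 8556 and 4164 reads. This was 53.9% of WT, a log2 ratio of -0.89 (-0.95 to -0.84).

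Phgdh and Psat1 encode consecutive enzymes of serine synthesis from the glycolytic intermediate 3-phosphoglycerate. Phgdh lies on chr3:98117093-98143913 (minus strand, 12 exons). It had the highest level of the set, an RPKM of 583.2 in WT and 339.2 in Kai1 KO cells, a log2 ratio of -0.78 (-0.81 to -0.75). Near-identical copies of its transcript stood at 2 other places in the genome, on chromosome 7 with 97.9% identity over 1825 bases and on chromosome 8 with 98.9% over 1826 bases. How reads shared with these copies were counted is not given, so the value is uncertain.

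Psat1, on chr19:15979168-16021827 (minus strand, 9 exons), had an RPKM of 77.3 in WT and 102.1 in Kai1 KO cells. Its log2 ratio of 0.40 (0.35 to 0.45) turned to -0.10 with the libraries scaled to Gapdh and to -0.08 with each RPKM taken as a share of its library's sum. A copy of its transcript with 92.4% identity over 1948 bases lies on chromosome 11. The quotient of Phgdh over Psat1, which no scaling of the libraries changes, was 7.54 in WT and 3.32 in Kai1 KO cells. It rests on both values, each of which may include reads of the copies.

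The order of the levels also differed. In WT cells it ran from Phgdh through Ddit3, Atf4, Asns, Chac1, Psat1, Trib3, Ddit4 and Sesn2 to Atf3. In Kai1 KO cells it ran from Phgdh through Atf4, Ddit3, Psat1, Asns, Chac1, Ddit4, Trib3 and Sesn2 to Atf3. Chac1 and Psat1 in WT cells, Ddit4 and Sesn2 in WT cells, and Chac1 and Ddit4 in Kai1 KO cells were neighbours whose counting intervals overlapped. No spread between replicates is known for any of these levels.

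**Figure D2:**
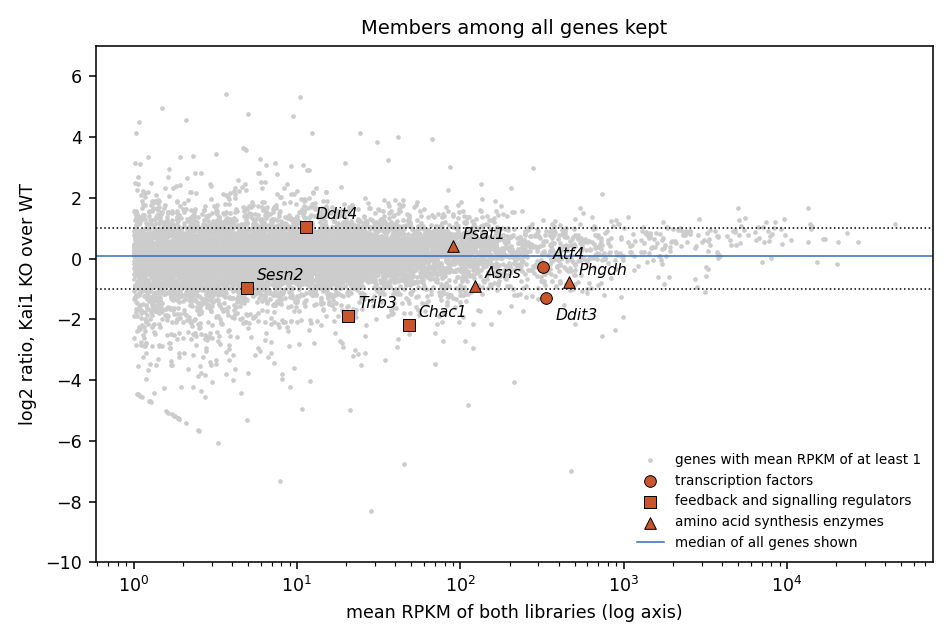
Log2 ratio of Kai1 KO to WT against the mean RPKM of both libraries (log axis) for all 10068 genes kept, in grey, with the 9 members kept marked by role, a line at the median of all genes and dotted lines at 2-fold. Chac1 (-2.18), Trib3 (-1.89) and Ddit3 (-1.31) lie below the lower line, and Ddit4 (1.03) lies at the upper line.

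The levels rest on how the libraries were scaled. Gapdh, a glycolytic enzyme often used as a reference, had an RPKM of 4238 in WT and 5997 in Kai1 KO cells, and the RPKM values summed to 885190 and 1238893. Scaling to Gapdh moved the median ratio of all genes kept from 0.08 to -0.41 and the counts of genes more than 2-fold higher and lower from 803 and 786 to 278 and 1856. Asns, Phgdh and Sesn2 then passed 2-fold, with log2 ratios of -1.39, -1.28 and -1.44, and Ddit4 did not, with 0.53. Such a scaling shifts every ratio and the median of all genes alike, apart from the pseudocount. Relative to the median of all genes in each setting, these values were thus bound to move little. The ratio of Ddit4 was 0.95 above that median as deposited and 0.94 above it with Gapdh, and that of Psat1 was 0.32 and 0.31 above it.

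**Figure D3:**
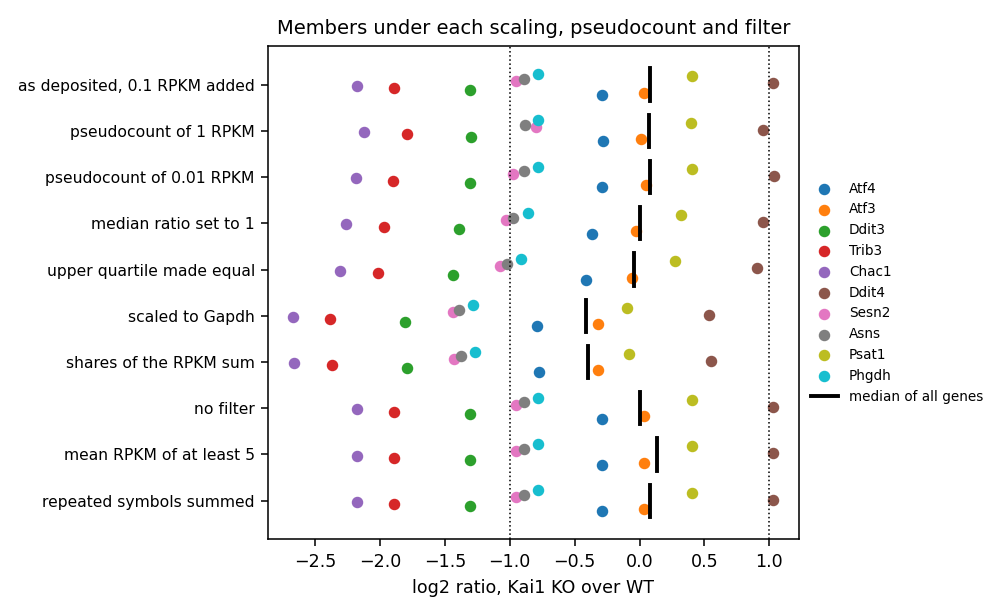
Log2 ratio of each member, Kai1 KO over WT, as deposited and under the other scalings, pseudocounts and filters, 1 mark per gene and setting, with the median of all genes as a black bar and dotted lines at 2-fold. Chac1, Trib3 and Ddit3 stay below -1 in every setting, while Psat1 and Atf3 have marks on both sides of 0.

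The members were also set against their closest relatives, a list of 8 paralogues of which 7 passed the filter. None was more than 2-fold different, where 7.98% of all genes kept were higher and 7.81% lower. Their median log2 ratio was 0.59, or 0.10 with Gapdh scaling. The paralogues named next were chosen after their values were seen. Chac2, a slower glutathione-degrading enzyme, had an RPKM of 2.88 in WT and 4.39 in Kai1 KO cells, so that Chac1 exceeded it 27.4 times in WT and 3.96 times in Kai1 KO cells. Trib1 (6.14 and 11.9 RPKM) and Trib2 (4.78 and 7.90 RPKM) had log2 ratios of 0.94 and 0.71, against -1.89 for Trib3. Sesn1, another sestrin, had an RPKM of 1.74 and 3.31, so that Sesn2 exceeded it 3.79 times in WT cells and equalled it in Kai1 KO cells, with a quotient of 1.01. In these 3 families the ratio of the member was lower than those of the relatives named. The ratios of Ddit4 and Atf4 were higher than those of their relatives, and Atf3 was too near the limit of detection to compare. Ddit4l, the relative of Ddit4, had 5.30 and 5.88 RPKM, a log2 ratio of 0.15 against 1.03. Jdp2, a relative of Atf3, had 63.6 and 51.6 RPKM, a log2 ratio of -0.30, inside the interval of Atf3 (0.04, -1.11 to 1.20). Atf5, the most abundant of the list, had a log2 ratio of -0.55 against -0.29 for Atf4.

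Upstream of ATF4, a list of 15 eIF2 kinases, phosphatase subunits and eIF2B subunits was measured in full. Its median log2 ratio was 0.25, or -0.24 with Gapdh scaling. In it 1 gene was more than 2-fold higher and 2 were lower, where 7.98% and 7.81% of all genes kept were. Ppp1r15a encodes GADD34, a target of the response that brings a phosphatase to eIF2 and so ends it. Its RPKM was 28.2 in WT and 7.57 in Kai1 KO cells, a log2 ratio of -1.88, near that of Trib3. Impact, an inhibitor of the amino acid sensing kinase GCN2, had 12.6 and 2.76 RPKM, a log2 ratio of -2.15. Eif2s1, which encodes the phosphorylated eIF2 subunit itself, had 22.8 and 48.1 RPKM, a log2 ratio of 1.07 that was under 2-fold with each of the 4 other scalings. Eif2b2, a subunit of the exchange factor that phosphorylated eIF2 blocks, was the most abundant of the list at 111.1 and 120.2 RPKM.

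Of 11 bZIP partners of ATF4, 9 passed the filter and the median was -0.45. Among them 1 was more than 2-fold lower, where 7.81% of all genes kept were. That one was Nfe2l1, a regulator of proteasome genes, with 53.8 and 26.8 RPKM, its Kai1 KO level at 49.8% of WT. It was not past 2-fold with a pseudocount of 1 RPKM, and with Gapdh scaling 3 genes of the list were. Atf5, a close relative of ATF4 under like translational control, was the most abundant with 123.3 RPKM in WT and 84.1 in Kai1 KO cells.

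Other known targets of ATF4 or CHOP formed a list of 13 genes. Of these, 11 passed the filter, 5 were more than 2-fold lower (7.81% of all genes kept were), none was higher, and the median log2 ratio was -0.75. Among genes with a mean RPKM of 5 or more, 3 were more than 2-fold lower. Nupr1, a small stress-induced chromatin protein, had an RPKM of 1472 in WT and 290.8 in Kai1 KO cells, a log2 ratio of -2.34. Sqstm1, the autophagy receptor p62, had 319.8 and 142.5 RPKM, a log2 ratio of -1.17. Gdf15, a secreted stress hormone, had 33.5 and 10.6 RPKM, a log2 ratio of -1.65. The other two were Pmaip1 (log2 ratio -2.11) and Vldlr (-1.79), named after their values were seen. Several of these genes are also targets of p53 or NRF2, and which factor acted on them was not tested.

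**Figure D4:**
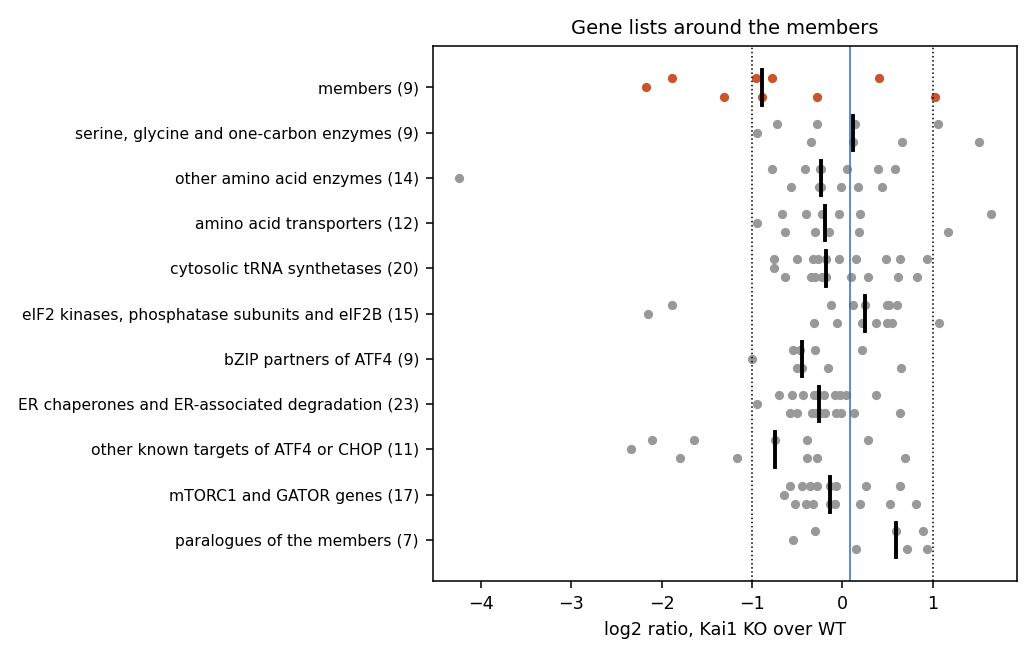
Log2 ratios of Kai1 KO to WT for the genes kept of the 10 members and of each pathway list, 1 point per gene, with the median of each list as a black bar, a blue line at the median of all genes and dotted lines at 2-fold. The members (-0.89) and the other ATF4 or CHOP targets (-0.75) have the lowest medians of the lists shown. The tRNA synthetases and chaperones lie within 2-fold. Of the cell type marker lists, not shown, the mural (-1.04), fibroblast (-1.13) and macrophage and leukocyte (-1.57) medians were lower still. The endothelial median was 0.70.

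The amino acid supply genes outside the members formed 4 lists, read against the 7.98% of all genes kept that were more than 2-fold higher and the 7.81% that were lower. All 20 cytosolic tRNA synthetases passed the filter and none was more than 2-fold different, with a median of -0.18 and a range from -0.76 to 0.93. With Gapdh scaling 4 of them were more than 2-fold lower. Gars, which charges glycine tRNA, was the most abundant, with 291.7 and 205.3 RPKM. Of 18 amino acid transporters 12 passed, with 2 more than 2-fold higher, none lower and a median of -0.19, and with 1 higher and 3 lower under Gapdh scaling. Slc7a6 had 6.26 and 14.2 RPKM (log2 ratio 1.17) and Slc7a2, a carrier of cationic amino acids, 0.927 and 3.10 RPKM (1.64). Slc3a2, the heavy chain that several transporters share, was the most abundant with 47.6 and 54.1 RPKM.

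Of 11 further serine, glycine and one-carbon enzymes 9 passed, with 2 more than 2-fold higher, none lower and a median of 0.12. With Gapdh scaling 1 was higher, 2 were lower and the median was -0.38. The 2 genes higher as deposited were the cytosolic enzymes Shmt1 and Mthfd1. Shmt1 had 4.01 and 11.6 RPKM, a log2 ratio of 1.51. Mthfd1 had 14.9 and 31.2 RPKM, a log2 ratio of 1.06 that was under 2-fold with each of the 4 other scalings. Mitochondrial enzymes of the same pathway, named after their values were seen, had ratios of either sign. Mthfd2 had 53.4 and 32.3 RPKM (log2 ratio -0.72) and Aldh1l2 10.2 and 5.24 RPKM (-0.95), while Shmt2 had 130.3 and 143.2 RPKM (0.14) and the log2 ratio of Mthfd1l was 0.66. Psph, which completes serine synthesis after PHGDH and PSAT1, had 21.6 and 17.7 RPKM (-0.28). Gcsh, of the glycine cleavage system, was the most abundant with 138.2 and 150.1 RPKM.

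Of 15 other amino acid enzymes 14 passed, none was more than 2-fold higher and the median was -0.24, with 3 lower under Gapdh scaling. Cth, which makes cysteine from cystathionine and is a known ATF4 target, was the 1 gene past 2-fold, with an RPKM of 4.45 in WT and 0.140 in Kai1 KO cells, a log2 ratio of -4.24. The Kai1 KO value lay below those of Atf3, near the limit of detection, so the size of this ratio is uncertain. Among genes with a mean RPKM of 5 or more, none of the list was past 2-fold. Got2, a mitochondrial aspartate aminotransferase, was the most abundant with 128.8 and 169.2 RPKM.

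Of 24 ER chaperone and ER-associated degradation genes, which ATF6 and XBP1 mainly control, 23 passed, none was more than 2-fold different and the median was -0.26. Over all genes kept, 7.98% were more than 2-fold higher and 7.81% lower. The ratios of the list ranged from -0.94 to 0.64 and 19 lay below 0. Calr, a calcium-binding chaperone, was the most abundant with 620.9 and 613.6 RPKM. With Gapdh scaling 4 of the list were more than 2-fold lower. Of 18 mTORC1 and GATOR genes 17 passed, with none past 2-fold and a median of -0.14, and with 3 lower under Gapdh scaling. Akt1s1, an mTORC1 subunit, was the most abundant with 34.5 and 27.4 RPKM.

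The promoters of the members were searched for the core of the C/EBP-ATF response element, TGATGNAA on either strand, the composite site at which ATF4 and a C/EBP protein bind together. RefSeq windows of GRCm38.p6, from 250 bases before to 50 bases after each annotated start, were matched for all 10 members. The core stood in the windows of 4 members, Asns, Chac1, Atf3 and Trib3, and in 3.97% of all 32851 windows. It stood in none of those of Atf4, Ddit3, Ddit4, Sesn2, Psat1 and Phgdh, which says only that these letters are not in this window. The cAMP response element TGACGTCA stood in 1.79% of all windows and in 0 members. The matches are shown 5′ to 3′ on the gene's strand, with the core in capitals, since they are the sequence that members with unlike ratios share.
Asns: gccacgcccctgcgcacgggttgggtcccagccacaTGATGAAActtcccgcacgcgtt
Chac1: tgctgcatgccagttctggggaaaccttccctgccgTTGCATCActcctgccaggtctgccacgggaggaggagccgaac
Atf3: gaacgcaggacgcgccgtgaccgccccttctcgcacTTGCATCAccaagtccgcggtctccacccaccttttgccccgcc
Trib3: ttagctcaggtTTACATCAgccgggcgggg

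The stretch of Asns is chr6:7693210-7693268 (GRCm38.p6, minus strand), and its core read on the gene's strand from 23 to 16 bases before the start. That of Chac1 is chr2:119351013-119351092 (plus strand), with the core on the opposite strand 193 to 186 bases before the start. The Atf3 stretch is chr1:191183400-191183479 (minus strand), with the core on the opposite strand 110 to 103 bases before the start. In Trib3, at chr2:152344028-152344057 (minus strand), the core lay on the opposite strand from position 15 to 22 after the start. Of these 4 genes, Chac1 and Trib3 had the lowest ratios of the members, Asns lay at the median of those kept, and Atf3 was at the limit of detection. Ddit3, more than 2-fold lower, held no core in its window. A match is a description of letters and shows no binding.

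**Figure D5:**
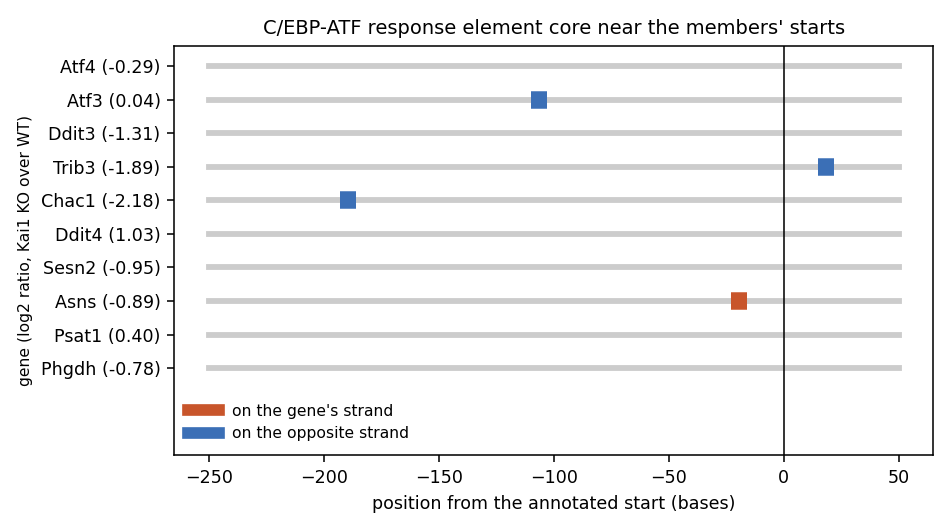
Position of the C/EBP-ATF response element core in the promoter windows of the 10 members, in bases from the annotated start, coloured by strand, with each gene's log2 ratio in brackets. Asns, Chac1, Atf3 and Trib3 each hold 1 match, and the other 6 genes hold none.

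The libraries differed beyond these genes. Cd82 had an RPKM of 12.8 in WT and 2.62 in Kai1 KO cells, so the targeted gene was lower but not absent. The Y-linked genes Ddx3y, Eif2s3y, Kdm5d and Uty, chosen after their values were seen, had 0.479 to 6.56 RPKM in WT cells and were listed at 0 in Kai1 KO cells, so sex and genotype cannot be told apart. Mki67, a proliferation marker chosen the same way, had 5.43 and 19.1 RPKM.

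Cell type markers differed between the libraries as well, with ratios of either sign. Over all genes kept, 7.98% were more than 2-fold higher and 7.81% lower. Of 13 mural cell markers 7 passed the filter and 4 were more than 2-fold lower (2 among genes with a mean RPKM of 5 or more). The median log2 ratio of those kept was -1.04, below that of the members. The summed RPKM of the list was 4646 in WT and 2978 in Kai1 KO cells, of which Acta2 made up 3823 and 2580. Acta2, Tagln and Cnn1, which encode contractile proteins, had log2 ratios of -0.57, -1.04 and -1.28. The pericyte markers Pdgfrb (44.7 and 31.6 RPKM) and Cspg4 (15.4 and 8.27 RPKM) passed, with log2 ratios of -0.50 and -0.89. Other pericyte markers, Rgs5, Kcnj8 and Abcc9, were below the filter. Mcam had 4.90 and 0.264 RPKM, a log2 ratio of -3.78. Its Kai1 KO value lay below those of Atf3, near the limit of detection, so the size of this ratio is uncertain. Of 8 fibroblast markers 7 passed and 4 were lower (1 among genes with a mean RPKM of 5 or more), with a median of -1.13. The sums were 2090 and 1301, led by Col1a1 at 924.5 and 533.6 RPKM and Col1a2 at 823.7 and 376.8 RPKM. Of 10 endothelial markers 2 passed and 1 was higher, with sums of 4.80 and 8.41, of which Egfl7 made up 2.28 and 7.39. Pecam1, Cdh5, Kdr, Tek, Tie1, Erg and Vwf were at 0 in Kai1 KO cells. In WT cells they had only 0.00391 to 0.413 RPKM, below the filter. Of the macrophage and leukocyte markers 3 passed, Cd14 higher and Csf1r and Lyz2 lower, with sums of 18.4 and 14.5, and Emr1 and Aif1 were at 0 in both. In bulk RNA, fewer cells of a type and less RNA per cell cannot be told apart. The part of these markers in the members' differences was not tested.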

How the data were processed

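RNA-seq of mouse aorta PVCs gave 1 WT and 1 Kai1 KO library. Per the submitters' processing notes, TopHat2 2.0.9, Bowtie and Cufflinks were used with the mm9 build, and the authors deposited 1 RPKM value per gene and library. Values scaled this way move with the composition of a library. Rows without a symbol (38 of 20462) were left out and repeated symbols averaged. Log2 ratios used a pseudocount of 0.1 RPKM. Reads per gene were estimated from the steps of low RPKM values, with about 29500000 reads in WT and 26650000 in Kai1 KO cells. Depth and fragment length were chosen to bring these low values near whole numbers of reads. That 81.2% and 80.4% of them came within 0.15 of whole numbers is thus no separate check. The fit used genes with a single annotated transcript, while the longest transcript was taken for members with several. Exact Poisson and Clopper-Pearson intervals used these estimated reads. The ratio script was tested on simulated data.

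The members and lists were chosen with earlier results of these data known. Named genes were the members and, per list, up to 3 genes kept with the highest mean RPKM past 2-fold in each direction, and the most abundant gene. Near-identical copies were transcript matches of at least 300 bases and 90% identity (minimap2 2.31). Positions came from the NCBI37 annotation. Alternatives were other pseudocounts, scalings and filters. Python 3.11.15, numpy 2.4.6, pandas 2.3.3, scipy 1.17.1 and matplotlib 3.10.9 were used.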

Additional observations from a re-analysis of the deposited data

How the results depend on the processing

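Chac1, Trib3 and Ddit3 stayed more than 2-fold lower in every alternative run. The signs of 8 members held in 9 of 9 alternatives, while Psat1 kept its sign in 7 and Atf3 in 5. Other filters and summed symbols left each member's own ratio unchanged, and a pseudocount cannot change a sign. Each of the other scalings lowered the Kai1 KO values against WT. Negative signs were thus fixed in advance, and only Ddit4, Psat1 and Atf3 could have changed theirs. For Chac1, Trib3 and Ddit3 only the larger pseudocount could have brought the ratio inside 2-fold. No member was more than 2-fold higher (0 against 1) under a pseudocount of 1 RPKM, a median ratio of all genes set to 1, equal upper quartiles, Gapdh scaling or shares of the RPKM sum, since Ddit4 lay near the limit. Members more than 2-fold lower numbered 4 with the median at 1, 5 with upper quartiles and 6 with Gapdh or shares, against 3. Their median was -1.02 with upper quartiles, -1.39 with Gapdh and -1.38 with shares, against -0.89, as all genes shifted. Genes more than 2-fold higher and lower numbered 278 and 1856 with Gapdh, 287 and 1822 with shares, 657 and 904 for the median at 1, 594 and 977 for upper quartiles, 1205 and 1878 unfiltered, and 511 and 350 for genes averaging 5 RPKM or more, against 803 and 786. With that filter the macrophage and leukocyte median was 0.11, against -1.57, since fewer genes remained. No paired analysis was possible because there was 1 library per genotype, and for the same reason no library could be left out. Depth limits Atf3.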

Other observations

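Ddit4, the 1 member more than 2-fold higher in Kai1 KO cells as deposited, is also induced by glucocorticoids and by hypoxia. Lists of such genes were described for comparison. Over all genes kept, 7.98% were more than 2-fold higher and 7.81% lower. Of 8 glucocorticoid-induced genes 7 passed the filter, 1 was more than 2-fold higher, 1 lower and the median log2 ratio was -0.55. Sgk1, a kinase of salt and growth control, had an RPKM of 31.2 in WT and 82.9 in Kai1 KO cells, a log2 ratio of 1.41, and Dusp1, a phosphatase of MAP kinases, had 45.0 and 21.5 RPKM (-1.07). Of 12 hypoxia-induced genes 11 passed, none was more than 2-fold higher, 2 were lower and the median was -0.18. These were Adm, which encodes a vasodilator peptide, with 28.8 and 8.82 RPKM (-1.70), and Ndrg1 with 3.87 and 1.34 RPKM (-1.47). Pgk1, a glycolytic enzyme, was the most abundant with 408.1 and 642.3 RPKM (0.65). Among genes with a mean RPKM of 5 or more, the median of the hypoxia list was 0.17 and 1 gene was lower. With Gapdh scaling none of the glucocorticoid list was more than 2-fold higher, 4 were lower and its median was -1.04. The hypoxia list then had none higher, 3 lower and a median of -0.62. Genes of both lists had ratios of either sign, and whether either stimulus differed between the cultures was not tested.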
